A study of Mus musculus with 8 samples.

Results

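Inhibitory cluster 18 is 1 of 21 groups into which the authors sorted the nuclei of a single nucleus RNA sequencing (snRNAseq) study of the adult mouse hippocampus. Its members were taken as all nuclei that carry this label in the deposited annotation, and there were 174 of them among 29425. The clusters were built from the same transcripts that are described here, so levels in cluster 18 against other nuclei are given as a description, with no test.

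The samples came from 12-week-old mice labelled male, with both hippocampi of 1 mouse in each library. Mutant mice were *Wls* fl/-;*Gfap-Cre*, which carry 1 null and 1 floxed copy of *Wls*, and control mice were *Wls* fl/+;*Gfap-Cre*, which carry 1 wild type and 1 floxed copy, so that Cre is present in both genotypes. Cre is driven by the *Gfap* promoter, which in this line is active in a subset of cortical progenitors, and each cell that lacks Cre keeps its floxed copy. The study made snRNAseq libraries and bulk RNAseq libraries from 2 mutant and 2 control mice each, to ask what the loss of *Wls* does to the hippocampus, in which dentate granule cells (DGCs) are few in the mutant.

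GABAergic interneurons are the inhibitory neurons of the hippocampus, and their classes differ in birthplace, shape and the part of the pyramidal cell that they contact. Interneurons born in the medial ganglionic eminence (MGE) keep the transcription factor Lhx6, whereas those born in the caudal ganglionic eminence (CGE) are marked by *Adarb2*, *Prox1* and *Nr2f2*. Neurogliaform cells form dense local axons, release GABA diffusely and are known for *Reln*, *Ndnf*, *Lamp5* and *Npy*. *Wls* encodes a membrane protein that cells need to secrete Wnt ligands.

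Libraries held between 5304 and 10460 nuclei and between 26307081 and 76486132 unique molecular identifiers (UMIs, each 1 captured transcript). Cluster 18 had 52 and 75 nuclei in mutant replicates 1 and 2, and 23 and 24 in control replicates 1 and 2. Its median nucleus had 3414 and 6597 UMIs in the mutants and 5619 and 8436.5 in the controls, so mutant replicate 1 was the shallowest. Between 8 and 21 cell barcodes were shared by any pair of libraries. In all nuclei the X-inactivation transcript *Xist* was between 1.60 and 3.49 UMIs per 1000000 (UPM) and Y-linked *Ddx3y* between 31.6 and 53.8 UPM, and cluster 18 nuclei had no *Xist* UMI in any of the 4 libraries. Scrublet marked 0, 6, 0 and 2 nuclei of cluster 18 as doublets, in the order mutant replicates 1 and 2, then control replicates 1 and 2. This order holds for every set of 4 values below.

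The label was first compared with markers of inhibitory neurons. Each of the 174 nuclei had at least 1 UMI of *Gad1* or *Gad2*, which encode enzymes that make GABA, or of *Slc32a1*, which encodes the vesicular GABA transporter. *Gad1* was at 511, 570, 482 and 665 UPM, *Gad2* at 877, 957, 800 and 875 UPM, and *Slc32a1* at 159, 105, 140 and 164 UPM. In CA1 pyramidal nuclei the means of these genes were 6.75, 6.31 and 1.96 UPM. The label was therefore kept. A UMI of a vesicular glutamate transporter, *Slc17a7* or *Slc17a6*, was seen in 5, 15, 4 and 7 nuclei, and *Slc17a7* at 14.5 to 33.1 UPM in cluster 18 compares with 25.4 to 43.7 UPM in inhibitory cluster 5 and a mean of 259 UPM in CA1 nuclei.

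Among interneuron classes, cluster 18 carried the neurogliaform transcripts. All 8 genes of the list for neurogliaform and ivy cells (*Reln*, *Ndnf*, *Lamp5*, *Npy*, *Id2*, *Nos1*, *Cacna2d1*, *Gabrd*) reached 50 UPM on average, and 7 of the 8 were more than 2-fold above cluster 5. Against cluster 12 the list divided the clusters less, with 3 of the 8 (*Reln*, *Ndnf* and *Npy*) more than 2-fold higher and 1 (*Nos1*) more than 2-fold lower. Their summed level was 5439, 6113, 6401 and 5433 UPM, against 584 to 655 UPM in cluster 5 and 3110 to 3378 UPM in cluster 12, the other 2 inhibitory clusters compared here. The 4 samples of cluster 18 were all above every sample of both clusters.

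*Reln*, which encodes the secreted glycoprotein reelin (chr5:21884454-22344702 of GRCm38, minus strand), stood at 2491, 3188, 3333 and 2111 UPM. In cluster 12 its range was 664 to 753 UPM and in cluster 5 it was 276 to 360 UPM. *Ndnf*, which encodes a secreted neurotrophic factor (chr6:65671590-65712326, plus strand), was at 332, 529, 614 and 388 UPM, and no sample of clusters 12 or 5 exceeded 48.9 UPM. *Npy*, which encodes neuropeptide Y, was uneven, at 284, 113, 140 and 309 UPM, and in cluster 5 it reached 127 UPM, so the groups overlapped. *Lamp5*, which encodes a membrane protein of neuronal vesicles (chr2:136052239-136069917, plus strand), was at 149, 173, 295 and 332 UPM, against 104 to 161 UPM in cluster 12 and 3.59 to 5.06 UPM in cluster 5. *Cacna2d1*, a calcium channel subunit, separated cluster 18 from cluster 5 by 17.0-fold but not from cluster 12, where the ratio was 1.01. *Nos1*, which makes nitric oxide and marks ivy cells, was lower in cluster 18 (58.4 to 108 UPM) than in cluster 12 (152 to 165 UPM), with no overlap.

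**Figure D1:**
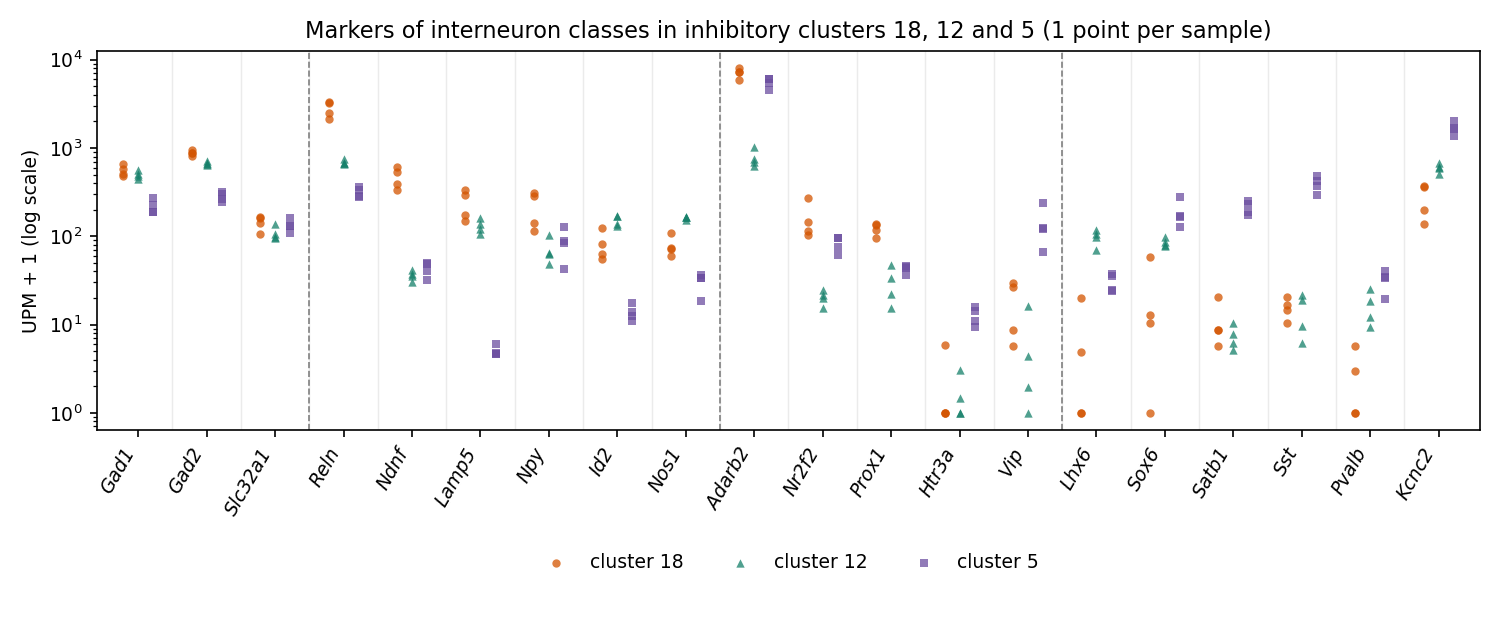
Levels of 20 marker genes in inhibitory clusters 18, 12 and 5, as UPM plus 1 on a log axis, with 1 point for each of the 4 snRNAseq samples. From left to right, dashed lines separate markers of inhibitory neurons, of neurogliaform and ivy cells, of CGE-derived cells, and of MGE-derived cells. *Reln* and *Ndnf* in cluster 18 lie above every sample of clusters 12 and 5, and *Lhx6* in cluster 18 lies at 18.7 UPM or less.

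Of the 7 listed genes of CGE-derived cells, 5 were more than 2-fold above cluster 12, but against cluster 5 only *Prox1* was, and *Htr3a*, *Npas1* and *Npas3* were more than 2-fold lower. The summed level of this list was 8923, 8294, 8599 and 6969 UPM and overlapped with that of cluster 5 (6382 to 8177 UPM). *Adarb2*, which encodes an RNA-binding protein, was at 8046, 7257, 7325 and 5948 UPM, and in cluster 12 it did not exceed 1029 UPM. In cluster 5 it was at 4576 to 6070 UPM, which overlapped with control replicate 2. The transcription factor *Prox1* was at 93.6 to 136 UPM and *Nr2f2* at 101 to 272 UPM, and both were above every sample of clusters 12 and 5. *Lhx6* had 0, 2, 0 and 4 UMIs in cluster 18, against 68.6 to 117 UPM in cluster 12. *Satb1* and *Sox6*, which act with Lhx6 in MGE-derived cells, were at means of 9.87 and 19.7 UPM, whereas cluster 5 had 210 UPM of *Satb1* on average. *Elfn1* and *Sst*, which mark somatostatin cells, were 24.4-fold and 25.2-fold lower than in cluster 5.

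Markers of the remaining classes were mixed. The list for *Vip*, *Cck* and *Calb2* cells summed to 458, 325, 536 and 440 UPM, against 661 to 1376 UPM in cluster 5 and 170 to 302 UPM in cluster 12, and 3 of its 9 genes reached 50 UPM. One of them was *Cnr1*, the cannabinoid receptor, at 222, 198, 318 and 187 UPM, and after thinning to 1500 UMIs it was detected in 20.8 to 28.8% of nuclei, against 1.77 to 9.17% in cluster 12, 25.3 to 38.7% in cluster 5 and 5.80 to 9.57% in CA1. *Cck* was at 106, 62.2, 124 and 192 UPM and overlapped with both clusters. The list for axo-axonic cells summed to 342, 272, 256 and 215 UPM, most of it *Prkg1*, and lay below cluster 12 (612 to 680 UPM). *Pvalb* and *Htr3a* did not exceed 4.82 UPM in any sample, and *Calb2* had a mean of 1.69 UPM. *Vip* UMIs numbered 6, 13, 1 and 1. All 13 in mutant replicate 2 came from 1 nucleus, and 5 of the 6 in mutant replicate 1 came from another. Since *Reln* also marks Cajal-Retzius neurons, the list for these cells was examined too. *Lhx1*, *Lhx5*, *Ebf3* and *Nhlh2* had no UMI in any sample of cluster 18, and *Trp73* was at 0 to 4.68 UPM.

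Detection per nucleus was compared after every nucleus had been thinned to 1500 UMIs, which kept all 174. *Adarb2* had a UMI in 98.1, 94.7, 91.3 and 87.5% of cluster 18 nuclei, against 25.0 to 32.1% in cluster 12, 35.1 to 53.2% in cluster 5 and 3.23 to 7.10% in CA1 nuclei, which give the background. *Reln* was detected in 69.2 to 82.6%, *Ndnf* in 30.8 to 60.9% and *Kit* in 37.5 to 69.6% of nuclei. In clusters 12 and 5, *Ndnf* and *Kit* did not exceed 4.93% and 4.30%. *Lamp5* was detected in 15.4 and 21.3% of mutant and in 43.5 and 33.3% of control nuclei. *Lhx6* was detected in 0 of 52, 0 of 75, 0 of 23 and 0 of 24 nuclei, which allows shares with a UMI at this depth of up to 5.77, 4.00, 13.0 and 12.5% (3 counts, counting error only) and sets no limit on nuclei that express the gene. Without thinning, 0, 2, 0 and 2 nuclei had an *Lhx6* UMI.

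Several neurogliaform transcripts were often seen in the same nucleus. After thinning, 57.7, 70.7, 60.9 and 62.5% of cluster 18 nuclei had UMIs of at least 3 of the 8 listed genes. The same count was reached by 29.6 to 43.4% of nuclei in cluster 12, 0 to 1.13% in cluster 5 and 0 to 0.374% in CA1. A UMI of *Sst*, *Vip*, *Pvalb*, *Lhx6*, *Calb2* or *Htr3a* was found in 1.92, 1.33, 8.70 and 4.17% of cluster 18 nuclei, against 40.6 to 46.9% in cluster 5 and 13.6 to 20.2% in cluster 12. In CA1 nuclei, 1.49 to 3.23% had such a UMI. This set of markers left out *Cck* and *Cnr1*, and the detection of *Cnr1* in cluster 18 given above exceeded the shares for the set. Without thinning the shares in cluster 18 were 80.8 to 100% for at least 3 listed genes and 13.0 to 25.0% for this set of markers. Within the cluster, odds ratios of detection between pairs of genes, taken within strata of depth, went in both directions. They were 3.19, 0.97, 6 and 0 for *Ndnf* with *Lamp5*, and 1.39, 0.45, 2 and 2 for *Ndnf* with *Npy*.

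Nuclei within the cluster were not alike. *Reln* spanned 0 to 96.1 UMIs per 10000 in mutant replicate 2, where the median nucleus had 32.3, and 13, 8, 3 and 1 nuclei had no *Reln* UMI. *Npy* was more uneven still. Its median nucleus had 0 UMIs in 3 of the 4 samples, while the highest nucleus of mutant replicate 1 had 27.6 per 10000. *Kit* was missing from 9, 9, 2 and 6 nuclei and *Sv2c* from 11, 15, 5 and 3, without thinning, so depth also enters these counts.

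The 25 leading genes of cluster 18 were defined as those with the highest ratio of mean UPM + 1 over that of the highest other label, among 3809 genes at 50 UPM or more. Of these 3809 genes, 13 had a ratio above 2 and 7 above 3. The order was led by *Gm30835*, a long noncoding RNA (ratio 6.42), then *Kit* (6.28), *Reln* (4.03), *Ndnf* (3.99), *Gm10475* (3.92), *Sv2c* (3.57) and *AC134453.1* (3.12). The 25th gene had a ratio of 1.69 and the 26th, just outside, 1.65. For 12 of the 25 the next label was cluster 12, for 2 it was cluster 5, and for 18 all 4 samples of cluster 18 exceeded every sample of the next label.

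*Kit*, which encodes the receptor for stem cell factor (chr5:75574916-75656722, plus strand), was at 554, 455, 699 and 342 UPM. No sample of clusters 12 or 5 passed 22.3 UPM, and the next label, excitatory neurons 7, had a mean of 80.8 UPM. *Sv2c*, which encodes a synaptic vesicle glycoprotein (chr13:95954594-96132577, minus strand), was at 482, 420, 365 and 515 UPM, against 110 to 148 UPM in cluster 12 and a mean of 64.3 UPM in DGCs. *Gm30835* (chr5:7680108-7960346, minus strand) was at 72.3, 72.0, 373 and 150 UPM, the least even of the leading genes. *Gm10475* (chr5:21910931-21954014, plus strand) lies inside the *Reln* gene on the opposite strand, and its reads may not be fully separable from those of *Reln*. *Gm10475* was at 77.1, 177, 109 and 103 UPM.

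Other leading genes have roles in signalling and excitability. *Adra1a*, an adrenergic receptor, was at 501, 459, 917 and 435 UPM, against 204 to 304 UPM in cluster 12. *Htr2a*, a serotonin receptor, was at 81.9, 89.5, 85.5 and 51.5 UPM, and in clusters 12 and 5 it stayed at 49.3 UPM or below. *Kctd16*, an auxiliary subunit of GABA-B receptors, was at 3185, 2902, 3146 and 2195 UPM. *Prkar2b*, a regulatory subunit of protein kinase A, *Cntnap2*, an adhesion protein of axons, and *Rab3c*, a vesicle GTPase, had ratios to the next label of 1.96, 1.75 and 1.74.

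**Figure D2:**
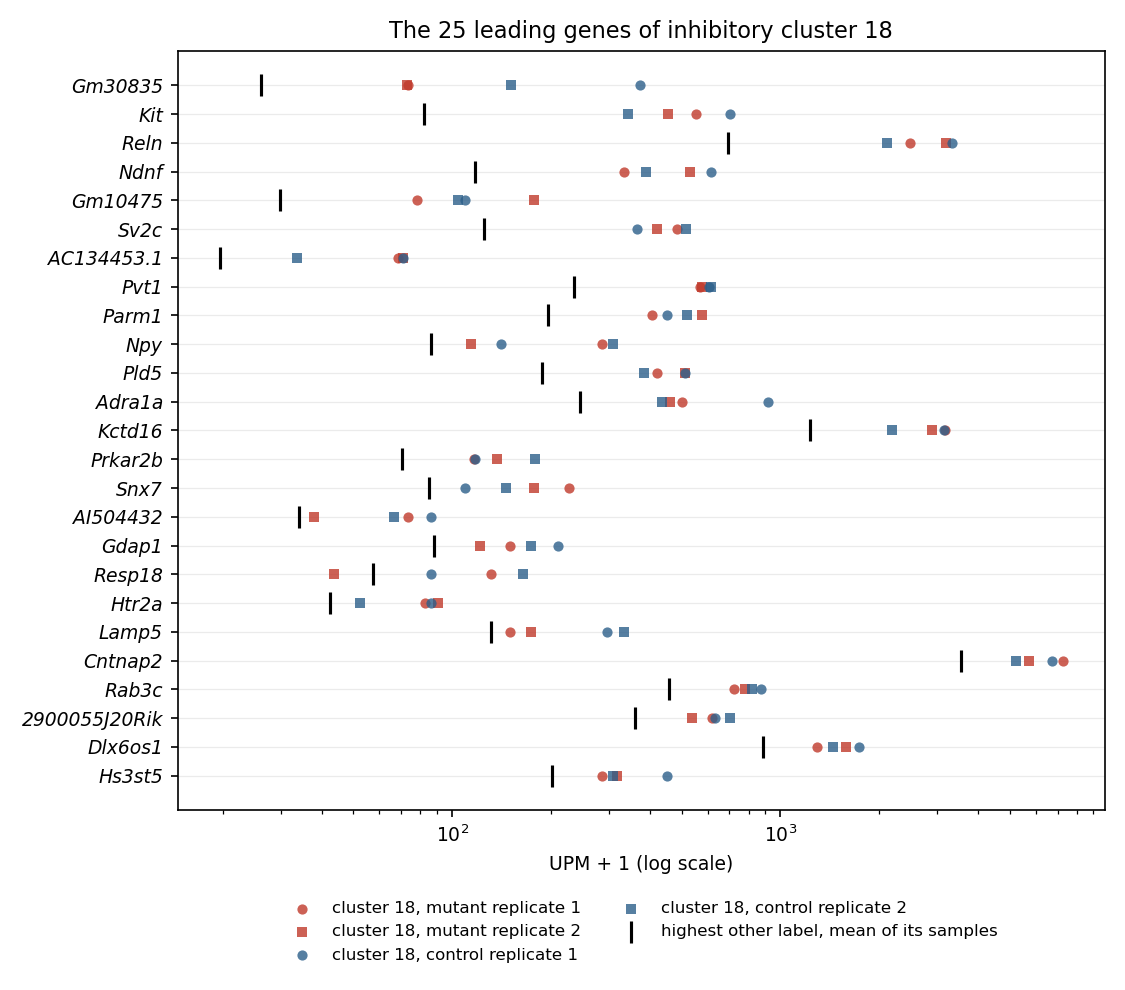
The 25 leading genes of inhibitory cluster 18 in order of their ratio, with the level in each snRNAseq sample as UPM plus 1 on a log axis (red, mutant; blue, control; circles, replicate 1; squares, replicate 2). Black bars mark the mean of the highest other label. *Gm30835* spreads from 72.0 to 373 UPM, whereas *Pvt1* lies between 569 and 613 UPM.

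Of all labels, cluster 12 was the most like cluster 18 (Pearson's r = 0.944 across 9265 genes of log mean levels), followed by cluster 5 (r = 0.930) and by excitatory neurons 8 (r = 0.878). These are correlations across genes, and genes are not independent replicates. Against cluster 12, 219 of 4117 genes were more than 2-fold higher and 162 more than 2-fold lower in cluster 18. Led by *Rxfp1*, a relaxin receptor (34.6-fold), *Kit* (31.8-fold) and *Ntn1*, an axon guidance factor (24.3-fold), the higher genes included the chemokine *Cxcl14* (11.0-fold). The lower genes included *Lhx6* (14.7-fold), *Moxd1* (15.5-fold) and *Tacr1*, the substance P receptor (11.6-fold). Against cluster 5, 243 of 4249 genes were more than 2-fold higher, led by *Lamp5* (47.8-fold) and *Sv2c* (47.2-fold), and 246 were more than 2-fold lower, led by *Crhbp*, which binds corticotropin-releasing hormone (45.0-fold).

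Function lists set the cluster apart from both relatives at several points. Among receptors for neuropeptides and monoamines, *Htr2a*, *Adra1a* and *Chrna7*, a nicotinic receptor subunit, were more than 2-fold above both clusters, and *Oprd1* and *Chrm2* more than 2-fold below both, of 13 genes that reached 50 UPM in any of the 3. *Chrm2*, a muscarinic receptor, was at 19.3, 0, 0 and 18.7 UPM. Among 14 GABA receptor genes the same held only for *Gabra4*, which was above both. Among glutamate receptor genes *Gria1*, an AMPA receptor subunit, was more than 2-fold below both. It stood at 756, 1280, 1072 and 1338 UPM against 2468 UPM or more in every sample of clusters 5 and 12.

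Among neuregulins and ErbB receptors, *Nrg1* and *Egfr* were above both clusters. *Egfr*, the epidermal growth factor receptor, was at 511, 681, 427 and 515 UPM, and no sample of cluster 12 passed 158 UPM. Of 37 adhesion and guidance genes, *Cntn5* and *Sema3e* were above both and 8 were below both, among them *Cntnap4*, *Cdh8*, *Slit2*, *Tenm2* and *Tenm3*. Of 18 potassium channel genes, *Kcnc2*, which serves fast spiking, was below both, at 135, 360, 365 and 197 UPM against 501 UPM or more. No gene of the lists for GABA synthesis and release or for the Wnt pathway was more than 2-fold above or below both.

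Transcripts of oligodendrocytes moved with the cluster. The 6 listed genes summed to 255, 593, 319 and 983 UPM, against 127 to 217 UPM in cluster 5 and 74.9 to 113 UPM in cluster 12, and *Mbp* and *St18* were more than 2-fold above both. They were concentrated in few nuclei. The 5 nuclei with the most held between 62.3 and 93.3% of these UMIs in a sample, and 2, 11, 2 and 4 nuclei had 3 or more. Without those 19 nuclei, 24 of the 25 leading genes were the same. Astrocyte transcripts summed to 453, 239, 225 and 140 UPM, against 112 to 213 UPM in cluster 5 and 74.9 to 350 UPM in cluster 12, and microglial ones to 69.9 to 117 UPM.

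*Wls*, the targeted gene (chr3:159839672-159938664, plus strand), had 0 and 1 UMIs in mutant and 5 and 9 UMIs in control nuclei of cluster 18. These are levels of 0, 1.95, 38.8 and 42.1 UPM, and the groups did not overlap. A count of 0 in mutant replicate 1 allows up to 14.5 UPM. Summed over samples, the control level was 29.5-fold above that of the mutant (exact 95% interval 4.49 to 1248, counting error only). With 15 UMIs in all, *Wls* did not reach the minimum count of the genotype test, but without that minimum its log2 fold change was -4.36 (edgeR's quasi-likelihood test, Benjamini-Hochberg adjusted p = 0.0388 over 17282 genes). The sources used here do not say which exons are deleted, so UMIs from outside the deletion may remain.

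In cluster 12, *Wls* was at 14.6, 10.6, 82.3 and 81.8 UPM, and in cluster 5 at 18.9, 25.4, 59.3 and 65.1 UPM. The control-to-mutant ratio was 7.24 (4.84 to 11.2) in cluster 12 and 2.67 (2.30 to 3.1) in cluster 5. The ratio was 20.6 (9.21 to 57.0) in astrocytes, 18.7 (10.3 to 38.0) in oligodendrocytes and 9.48 (4.75 to 21.5) in oligodendrocyte precursors. In CA1 it was 3.33 (2.78 to 4.01), in microglia 2.19 (1.64 to 2.97) and in DGCs 0.728 (0.453 to 1.22). A large ratio was therefore not particular to cluster 18. Mutant cells carry the null copy with or without Cre, so these ratios do not separate that copy from deletion by Cre. The genotype effect on *Wls* in cluster 18 minus that in clusters 5 and 12 together was -3.14 on the log2 scale (SE 1.13, adjusted p = 1 over 12916 genes by edgeR's quasi-likelihood test), and so did not pass.

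**Figure D3:**
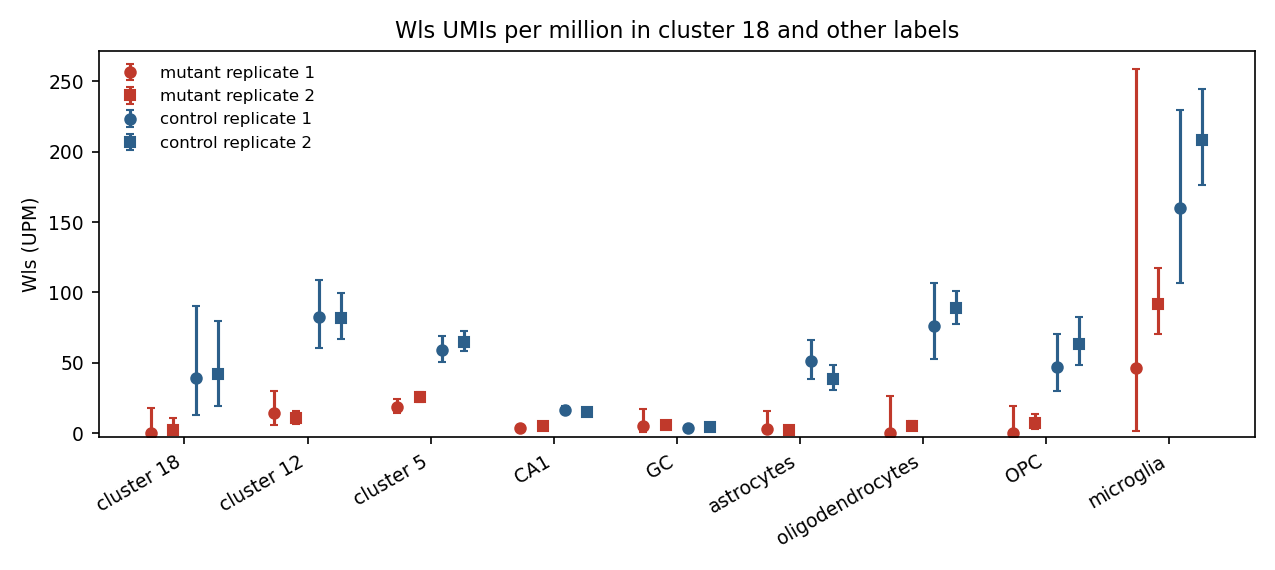
*Wls* level in UPM in cluster 18 and 8 other labels, with 1 point per snRNAseq sample (red, mutant; blue, control) and exact 95% intervals for counting error. In cluster 18 the mutant samples lie at 0 and 1.95 UPM and the control samples at 38.8 and 42.1 UPM.

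Cluster 18 made up a larger share of mutant nuclei, but the difference did not pass the test. Of all nuclei it held 0.980% (exact 95% interval 0.733 to 1.28) and 0.717% (0.564 to 0.898) in mutants and 0.356% (0.226 to 0.533) and 0.334% (0.214 to 0.496) in controls. The groups did not overlap. The log2 fold change was 1.29 (SE 0.506, adjusted p = 0.309 over 21 labels, edgeR's quasi-likelihood test on numbers of nuclei), and 0% of labels were called. An exact permutation test of 2 against 2 samples cannot go below p = 0.33. DGC nuclei made up a smaller part of the mutant libraries, and this was not called either (log2 fold change -3.38, adjusted p = 0.181, edgeR's quasi-likelihood test). A missing call thus does not show an unchanged share. The share of cluster 18 among all nuclei also depends on the DGC nuclei. When DGC nuclei were left out of the total the shares of cluster 18 were 0.997 and 0.75% against 0.556 and 0.463%. The log2 fold change was then 0.77 (adjusted p = 0.816, same test).

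Among the nuclei of inhibitory clusters 5, 12 and 18, cluster 18 held 6.34 and 5.75% in mutants and 4.74 and 4.51% in controls. All 4 exact intervals overlapped. The log2 fold change was 0.38 (SE 0.136, adjusted p = 0.375, edgeR's quasi-likelihood test). Shares of nuclei depend on how many nuclei of each type were recovered, which was not measured.

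**Figure D4:**
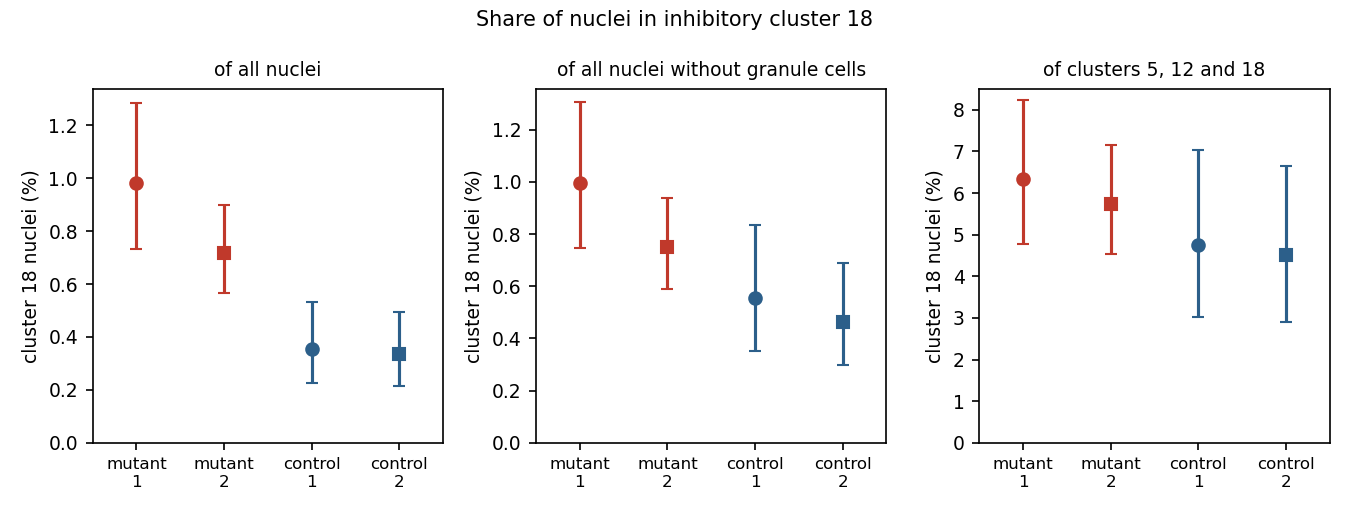
Share of nuclei in inhibitory cluster 18 as percent of all nuclei, of all nuclei without granule cells, and of clusters 5, 12 and 18, for each snRNAseq sample (red, mutant; blue, control), with exact 95% binomial intervals. The mutant samples lie above the control samples in each panel, at 0.980 and 0.717% against 0.356 and 0.334% of all nuclei and at 6.34 and 5.75% against 4.74 and 4.51% within the inhibitory clusters.

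For the comparison of genotypes, UMIs were summed over the cluster 18 nuclei of each mouse, and 4268 genes passed the filter on low counts. With fold change (FC) above 2 and false discovery rate (FDR) below 0.05, no gene was called higher or lower in the mutant (0% in each direction, edgeR's quasi-likelihood test). DESeq2 called 0 and 0. At an unadjusted p below 0.05 and FC above 2, edgeR gave 48 higher and 54 lower genes, and DESeq2 gave 2 and 10. In simulated counts over these 4268 genes, with 200 of them changed, 21% of 2-fold, 86.5% of 4-fold and 91.5% of 8-fold changes passed both thresholds. Changes near 2-fold were thus mostly missed, in part because the FC threshold itself removes true 2-fold changes estimated below it. The adjustment depends on how many genes change, so these shares need not hold for the measured counts.

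The genes with the lowest p in each direction are given as values, since their adjusted p was 0.807 throughout. *Hcrtr2*, an orexin receptor, was at 275 and 278 UPM in mutants and 163 and 103 UPM in controls. *Il1rapl2*, a synaptic adhesion protein, was at 53.0 and 124 against 23.3 and 32.8 UPM (log2 fold change 1.76). Its log2 fold change was 0.88 without mutant replicate 2, 1.01 without doublets and 2.15 without mutant replicate 1, where it was called (edgeR, FDR = 0.0368). *Gmpr2*, a guanine nucleotide reductase, was at 4.82 and 5.84 against 62.1 and 60.8 UPM, from 1, 3, 8 and 13 UMIs. *Gm30835* was at 72.3 and 72.0 against 373 and 150 UPM (log2 fold change -1.74, SE 0.407). Dropping control replicate 1 gave -0.996, whereas dropping control replicate 2 gave -2.31 (edgeR, FDR = 3.5e-07), and it was also called when mutant replicate 1 was dropped (FDR = 0.0368). *Itm2b*, a membrane protein, was at 154 and 99.2 against 264 and 342 UPM. In these 5 genes the groups did not overlap, as was true of 17.2% of the 4268 genes with the mutant higher and of 19.8% with the mutant lower.

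Transcripts that characterise the cluster were present in both genotypes, which follows in part from the selection. Nuclei were labelled from the same transcripts, and the leading genes were picked by their mean over mutant and control samples together. Presence in both genotypes is therefore no test of a kept identity. Of the 25 leading genes, all 25 were tested and 0 were called, with a median log2 fold change of -0.11, against -0.01 over all genes tested. In 1 of the 25 both mutants were above both controls and in 6 both were below, against 17.2% and 19.8% of all genes. *Reln* differed by 0.10 (SE 0.243), *Ndnf* by -0.13 (SE 0.294), *Kit* by 0.01 (SE 0.306), *Npy* by -0.34 (SE 0.445) and *Sv2c* by 0.03 (SE 0.237) on the log2 scale, each with adjusted p above 0.9. Leaving out 1 sample turned the direction of *Reln* (-0.18 to 0.49), *Ndnf* (-0.55 to 0.24), *Kit* (-0.44 to 0.60) and *Npy* (-0.98 to 0.41). *Lamp5* had 149 and 173 UPM in mutants and 295 and 332 UPM in controls, without overlap (log2 fold change -0.92, SE 0.245, adjusted p = 0.807).

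No member of any of the 23 marker lists or 15 function lists was called, as was true of all 4268 genes tested (0%). Members that were not tested could not be called. No listed gene of microglia, endothelial and mural cells, meningeal fibroblasts, ependymal cells or thalamic, midbrain and septal neurons was tested. Only 1 of 7 genes for MGE-derived cells was tested, 3 of 9 for *Vip*, *Cck* and *Calb2* cells and 9 of 35 receptors for neuropeptides and monoamines. Among inhibitory markers 3 of 3 were tested, with a median log2 fold change of -0.07. Of the 8 neurogliaform and ivy genes 8 were tested (median -0.31), of 15 GABA receptor genes 14 (median 0.03), of 23 glutamate receptor genes 19 (median 0.09) and of 22 potassium channel genes 18 (median -0.02). Of the 39 genes of the Wnt pathway only 7 had enough counts (median -0.06). Wnt ligands themselves were sparse in cluster 18, with *Wnt5b* at 3, 18, 6 and 3 UMIs and *Wnt5a* at 1, 4, 0 and 1.

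**Figure D5:**
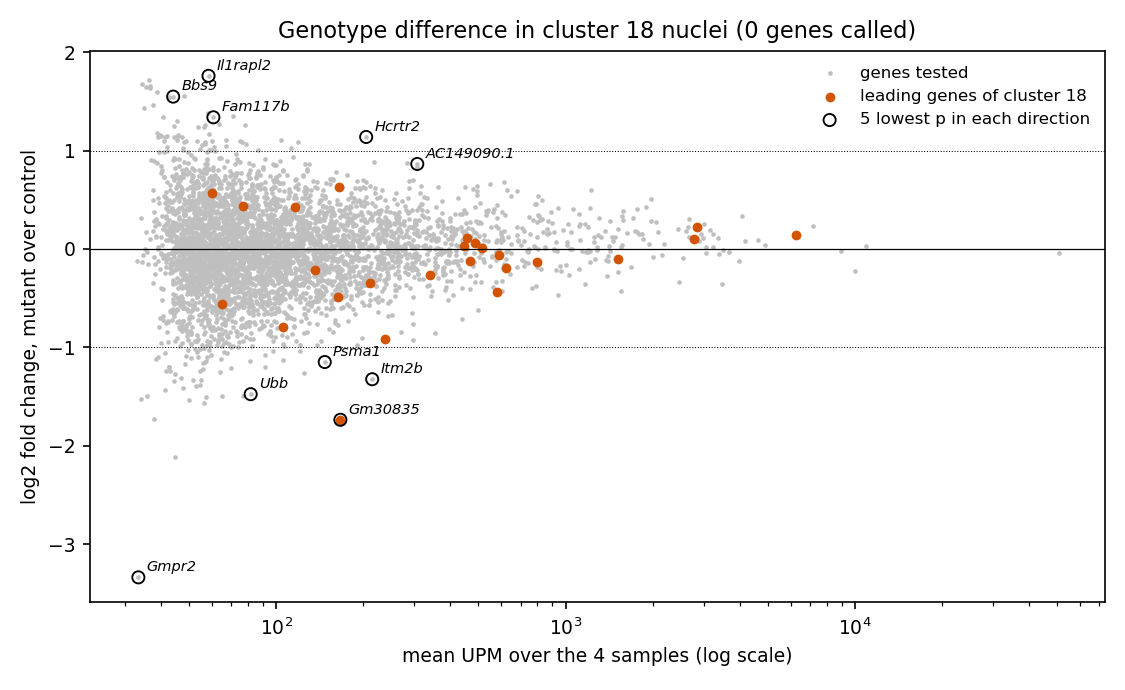
Log2 fold change of mutant over control against mean level in UPM (log axis) for the 4268 genes tested in cluster 18 nuclei. Orange points are the leading genes of the cluster, circles mark the 5 genes with the lowest p in each direction, and dotted lines mark 2-fold. *Gmpr2* lies lowest at -3.34, and 0 genes were called.

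The genotype effect in cluster 18 was then set against that in clusters 5 and 12 together, in a model with the mouse as a block. Of 12916 genes 1 was called (0.00774%), *Nsun2*, which encodes an RNA methyltransferase (difference of log2 fold changes -1.90, SE 0.399, FDR = 0.0242). *Nsun2* was at 33.7, 35.0, 46.6 and 206 UPM in cluster 18, so that control replicate 2 stood alone. Of its 44 UMIs in that sample 29 came from 1 nucleus, and without that nucleus its level there was 74.5 UPM. Without control replicate 2 the difference was -0.59 (FDR = 0.953), and without mutant replicate 1 or mutant replicate 2 the FDR was 0.122 or 0.697. Without control replicate 1 the difference was -2.25 (FDR = 0.000951).

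Finally, the 25 leading genes were followed in bulk RNAseq of whole hippocampi, in which fewer cells of a type and less RNA per cell cannot be told apart. Cluster 18 held only 0.334 to 0.980% of nuclei. Some leading genes were abundant in common cell types, such as *Cntnap2* (mean 3481 UPM in CA1) and *Kctd16* (1232 UPM in DGCs). Others, such as *Dlx6os1* (3.64 UPM in CA1), were not. The bulk values below therefore do not isolate cluster 18. The bulk libraries labelled replicate 2 had *Xist* at 230 and 518 counts per 1000000 (CPM) and *Ddx3y* at 0.352 and 0.343 CPM, against 1.44 and 1.05 CPM and 54.5 and 58.3 CPM in those labelled replicate 1, which goes against the label male for the mice of replicate 2. In each genotype 1 library was of each kind. Bulk libraries held 56002302 to 79576119 rounded counts.

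Of the 25 genes 22 were tested in bulk, and 0 were called higher and 1 lower with FC above 3 and FDR below 0.05, where 0.0193% and 0.198% of all 20687 genes were called higher and lower. Their median log2 fold change was 0.01, as was that of all genes, and 11 were above and 11 below 0. The inhibitory markers *Gad1* (335 and 374 against 313 and 305 CPM) and *Gad2* (221 and 229 against 191 and 183 CPM) were not called. *Ndnf* was at 27.9 and 26.4 against 33.1 and 38.0 CPM (FDR = 0.127), *Npy* at 26.2 and 27.3 against 19.9 and 23.5 CPM (FDR = 0.225), and *Lamp5* at 38.0 and 35.1 against 38.9 and 38.0 CPM (FDR = 0.631).

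The called gene was *Sv2c*, which fell in mutant tissue from 48.4 and 42.4 CPM to 13.4 and 13.2 CPM (log2 fold change -1.77, SE 0.0928, FDR = 0.0102). In the nuclei of cluster 18 it was at 482 and 420 UPM in mutants and 365 and 515 UPM in controls, with overlap. In DGC nuclei *Sv2c* was at 41.1 and 74.7 UPM in mutants and 63.3 and 78.1 UPM in controls, and DGC nuclei numbered 90 and 463 in mutants against 2336 and 2007 in controls. The part of the DGC number in the bulk result was not tested. The call was lost when either control was left out (log2 fold change -1.67 with FDR = 0.111 without replicate 1, and -1.86 with FDR = 0.128 without replicate 2). Within the libraries of replicate 1 the values were 13.4 against 48.4 CPM, and within those of replicate 2 they were 13.2 against 42.4 CPM. *Prkar2b* (22.7 and 21.3 against 33.0 and 33.6 CPM, FDR = 0.0435) was below the fold threshold.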

How the data were processed

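The snRNAseq files hold raw UMI counts per gene and nucleus, which the authors obtained with Cell Ranger 3.1.0 on mm10 with introns included, together with a cell type label from their own clustering. Size factors, the ratio of the total of a nucleus to the geometric mean over nuclei, were computed by the authors and not used in tests. For bulk RNAseq, the authors deposited expected counts per gene from RSEM 1.3.0 with Bowtie2 2.2.9, which share out reads that fit several genes, and these were rounded here.

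UMIs were summed per mouse over cluster 18 nuclei. Genotypes were compared with edgeR 4.0.16 (R 4.3.3) by the quasi-likelihood test after filterByExpr and TMM, with Benjamini-Hochberg adjustment. Thresholds were FC above 2 (snRNAseq) or 3 (bulk) and FDR below 0.05, as in the study. The standard error was taken as the absolute log2 fold change divided by the square root of F. Numbers of nuclei were compared in edgeR with total nuclei as library size. UPM is UMIs per 1000000 of a label's total in a sample, and ratios use a pseudocount of 1 UPM. Nuclei were thinned to 1500 UMIs with a fixed seed. Scrublet (scanpy 1.11.5) marked 2 nuclei of mutant replicate 1, under 0.5%, and is taken not to have worked there. Doublets were kept except in an alternative. The test was first tested on simulated data, which gave 5, 1 and 7 false calls at 2-, 4- and 8-fold. Python tools were scipy 1.17.1, pandas 2.3.3 and numpy 2.4.6. Positions are from gencode vM21 (GRCm38).

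Groups were taken from the sample labels. Each library was made from a different mouse. The cluster, the gene lists and the rules were chosen with earlier results of these data known. Named genes are those of the lists, the 25 leading genes, the genes past the thresholds, the 5 lowest p in each direction and the 10 highest ratios each way against clusters 5 and 12. DESeq2 1.42.0, RLE, no filter, the replicate block, subsets of nuclei and the omission of each sample were the alternatives. Intervals and limits for a count of 0 cover counting error only. The deposited matrix of all bulk libraries divided by size factors was not used.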

Additional observations from a re-analysis of the deposited data

Results flagged for a closer look

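*Nsun2* differed in its genotype effect between cluster 18 and clusters 5 and 12 together, by -1.90 on the log2 scale (FDR = 0.0242, edgeR's quasi-likelihood test of the interaction). In clusters 5 and 12 together it was at 35.1 and 36.2 UPM in mutants and 29.4 and 42.4 UPM in controls, with a log2 fold change of 0.00. In cluster 18 it was seen in 6 of 52, 15 of 75, 5 of 23 and 9 of 24 nuclei, and the highest single nucleus held 2, 2, 2 and 29 UMIs. With 2 samples per group, no sample was tested as an outlier.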

How the results depend on the processing

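Shares of nuclei kept their direction and stayed short of the threshold under all alternatives run, with log2 fold changes from 0.60 (TMM over the labels) to 1.5 over all nuclei and from 0.31 to 0.45 among the inhibitory clusters. With the replicate block they were 1.28 and 0.38. With no filter on low counts, 3 genes were called higher and 4 lower in cluster 18 (*Gm30835*, *Gmpr2*, *Gpc5*, *Nsun2*, *Usp6nl*, *Wls* and *Gm30003*). Leaving out 1 sample gave 0 to 8 higher and 0 to 3 lower, with 8 and 3 without control replicate 2, 1 and 3 without mutant replicate 1, 1 and 0 without mutant replicate 2, and 0 and 1 without control replicate 1. With the replicate block, without doublets, without nuclei with glutamatergic or oligodendrocyte UMIs, thinned to 1500 UMIs and in DESeq2, 0 and 0 were called. Replicate numbers were taken not to pair the mice. The correlation of deviations was 0.065, and with 2 samples per group it is equal in the 2 pairs by construction, so it is a single value. For the difference from clusters 5 and 12, the replicate block called 4 higher and 2 lower, leaving out 1 sample 0 to 3 and 0 to 2, and the 4268 genes tested in cluster 18 alone (a setting chosen after seeing the data, as was the one without oligodendrocyte UMIs) 0 lower. In bulk, leaving out 1 sample gave 0 to 1 leading genes called lower, and the replicate block 1 (*Sv2c*, FDR = 0.030). Of the leading genes, 13 were shared at a minimum of 10 UPM and 10 with no minimum, with 24 and 62 ratios above 2, and 19 to 23 were shared without 1 sample, with 14 to 16 ratios above 2. Mean detection over samples rose with depth. At 3000 UMIs and unthinned it was 84.5 and 86.8% for *Reln*, 60.4 and 77.0% for *Ndnf*, 70.1 and 84.2% for *Kit*, 42.9 and 64.2% for *Lamp5*, 35.9 and 45.3% for *Npy*, and 0.333 and 2.75% for *Lhx6*. The cause of these moves was not tested, other than fewer samples, genes or UMIs by construction. Precision is limited by 2 mice per genotype and by 23 and 24 control nuclei.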
